A study of Mus musculus with 13 samples.

Results

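Lymphocyte-homing chemokines were followed across the cell types of the mouse liver during cholangitis and recovery. The 7 genes described here are 3 ligands, Ccl20, Cxcl16 and Cxcl12, their receptors Ccr6, Cxcr6 and Cxcr4, and Ackr3, a second receptor for Cxcl12. They were taken by name from the 55353 genes counted, and their unique molecular identifiers (UMIs) were summed over barcodes with at least 1500 UMIs. The samples were 13 droplet 3′ single-cell RNA libraries from livers of male C57BL/6J mice aged 6 to 12 weeks. Control chow gave the steady state (D0), and chow with 0.1% of the hepatobiliary toxicant DDC gave the onset stage (D3, D5) and the progression stage (D9, D19, D25). Each of these days had 1 library per isolation protocol, A and B, so the atlas held 2 steady-state, 4 onset and 6 progression libraries. A recovery library (STOP), prepared by protocol B, came after 18 days of DDC and 7 days on normal chow, and the D19 library of protocol B also had 18 days of DDC by its label. Livers were digested with collagenase D and sorted. Protocol A pooled gates for Cd45+, Lyve-1+, Pdpn+, Epcam+ and Cd31+ Lyve-1- cells with autofluorescent stellate cells, whereas protocol B pooled a stellate cell preparation with gates for Itgax+ Cd64- leukocytes, Epcam+ cells and Cd3e+ cells. Shares of cells therefore follow the gates and are not read as abundance. The labels did not say which or how many mice gave a library, so the spread between libraries of a stage may be partly technical.

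Chemokines are small secreted proteins that bind G protein-coupled receptors on leukocytes and steer where these cells move and stay. Ccl20 is the chemokine ligand of Ccr6, which marks type 17 lymphocytes and B cells. Cxcl16 is made as a membrane-anchored protein that can be shed, and its receptor Cxcr6 is known from tissue-resident lymphocytes of the liver sinusoids. Cxcl12 from stromal cells acts through Cxcr4, whereas Ackr3 does not signal through G proteins and removes Cxcl12 from the surroundings.

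The libraries held between 29307190 and 108602421 UMIs, and 95563 barcodes passed the minimum, 87083 of them in the 12 atlas libraries. Of these barcodes, 2219 occurred in more than 1 library, with at most 49 shared by any pair of libraries. Clusters were named from marker genes and are "-like" cell types throughout: biliary epithelial cells (BEC), liver sinusoidal endothelial cells (LSEC), dendritic cells (cDC1, cDC2, plasmacytoid pDC and a mature state) and the others named below. Between 5.56% and 19.2% of the cells of a library lay in clusters that stayed unnamed. A type entered a library only with at least 20 cells, which left BEC with 1 steady-state library, D0 A, since D0 B held 2 BEC. Levels are given as CPM, the UMIs of a gene scaled to 1000000 UMIs over all cells of that type in 1 library, and intervals on single libraries are exact 95% Poisson intervals that cover counting error only. Since the reads were counted from the 3′ end, a level was not divided by gene length. Empty droplets, read from barcodes under 100 UMIs, carried Cxcl16 at 126 to 342 CPM and Cxcl12 at 1.85 to 119 CPM, with D0 A at 59.8 CPM and D0 B at 1.85 CPM for Cxcl12.

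On GRCm38, Ccl20 lies on chromosome 1 at 83116766-83119167 (+), Ccr6 on chromosome 17 at 8236043-8257141 (+), Cxcl16 on chromosome 11 at 70453983-70459984 (-) and Cxcr6 on chromosome 9 at 123806475-123811760 (+). Cxcl12 lies on chromosome 6 at 117168535-117181367 (+), Cxcr4 on chromosome 1 at 128588199-128592293 (-) and Ackr3 on chromosome 1 at 90203980-90216751 (+). Cxcl16 overlaps Zmynd15, and Cxcr6 overlaps Fyco1, each on the opposite strand. In 2 of the 3 Cxcl16 transcripts 19.6% and 22.7% of the stretches of 31 bases also occur in Zmynd15, none of them in the last 500 bases, where 3′ reads mostly fall. Promoter windows of 300 bases, from 250 before to 50 after the annotated start, were read from RefSeq on GRCm38.p6 for 6 of the members, Cxcl16 having no entry. The NF-kB consensus, searched on both strands, occurred in the windows of 2 of these 6, Ccl20 and Ccr6, and in 8.46% of all 32851 windows searched. The ligand and the receptor of the same pair are shown because they were the members with a match, which is set in capitals. In Ccl20 (chr1:83116516-83116815, + strand) the match began at position -80 from the start, and in 1 of the 2 windows of Ccr6 (chr17:8242276-8242575, + strand) 2 overlapping matches stood together. A match of letters is a description and not evidence of binding.
Ccl20 promoter: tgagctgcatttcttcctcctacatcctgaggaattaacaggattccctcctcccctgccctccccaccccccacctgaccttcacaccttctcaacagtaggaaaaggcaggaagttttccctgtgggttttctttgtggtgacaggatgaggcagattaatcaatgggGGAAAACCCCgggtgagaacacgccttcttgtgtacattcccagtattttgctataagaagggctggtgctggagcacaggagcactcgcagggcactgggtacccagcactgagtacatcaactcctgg
Ccr6 promoter: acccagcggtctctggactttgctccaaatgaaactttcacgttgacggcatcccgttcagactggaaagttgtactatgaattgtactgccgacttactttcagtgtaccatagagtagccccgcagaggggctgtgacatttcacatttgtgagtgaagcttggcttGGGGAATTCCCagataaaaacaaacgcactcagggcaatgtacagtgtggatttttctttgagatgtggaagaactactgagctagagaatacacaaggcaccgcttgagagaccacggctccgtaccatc

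Ccl20 had its highest mean in BEC and Cxcl12 in stellate cells and fibroblasts, Cxcl16 was spread over many types, and Ccr6 and Cxcr4 had their highest means in leukocytes. Ccl20 was highest in BEC, at a mean of 35.4 ± 24.6 CPM (SD, n = 9 libraries), and the next type, LSEC, had 1.42 ± 2.45 CPM (n = 12). Cxcl16 was spread over antigen-presenting, endothelial and epithelial cells, from mature dendritic cells at 921 ± 199 CPM (n = 8) over macrophages at 369 ± 74 (n = 12), cDC2 at 302 ± 72.3 (n = 12), BEC at 295 ± 98.3 (n = 9) and LSEC at 228 ± 34.8 (n = 12) to cDC1 at 181 ± 33.7 (n = 11). The means of cDC2, BEC, LSEC and cDC1 lay within the 157 to 342 CPM of empty droplets of the atlas libraries. The part of free RNA in them was not tested. Cxcl12 was highest in stellate cells and fibroblasts at 1185 ± 428 CPM (n = 7), followed by vascular endothelial cells at 41.4 ± 37.4 (n = 9). Among named types, Ackr3 was highest in vascular endothelial cells at 116 ± 62.7 CPM (n = 9), mesothelial cells at 90.9 ± 41.8 (n = 6) and stellate cells and fibroblasts at 85.7 ± 56 (n = 7). LSEC came next at 28.7 ± 19.1 (n = 12). For the receptors, Ccr6 was highest in B cells at 31 ± 10.1 CPM (n = 7) and T cells at 16.5 ± 33.8 (n = 10), and Cxcr4 in neutrophils at 571 ± 208 (n = 11), monocytes at 265 ± 96.5 (n = 7) and B cells at 180.5 ± 107 (n = 7). The T cell mean of Ccr6 rested on D9 A at 112 CPM, with at most 19.1 in the other libraries. Cxcr6 was hardly counted in any type. When types were ordered by mean log2(CPM + 1), 105 pairs of neighbouring types were compared by a two-sided exact sign-flip permutation test over shared libraries, and 0 passed after Benjamini-Hochberg adjustment (smallest adjusted p = 0.149; 13 had an unadjusted p under 0.05). For BEC against LSEC in Ccl20, BEC was higher in 8 of 9 libraries (unadjusted p = 0.00781, where 0.00391 is the smallest that 9 libraries allow). With so few libraries a single pair could not pass over 105 pairs, so the count of 0 does not show that neighbours were alike.

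**Figure D1:**
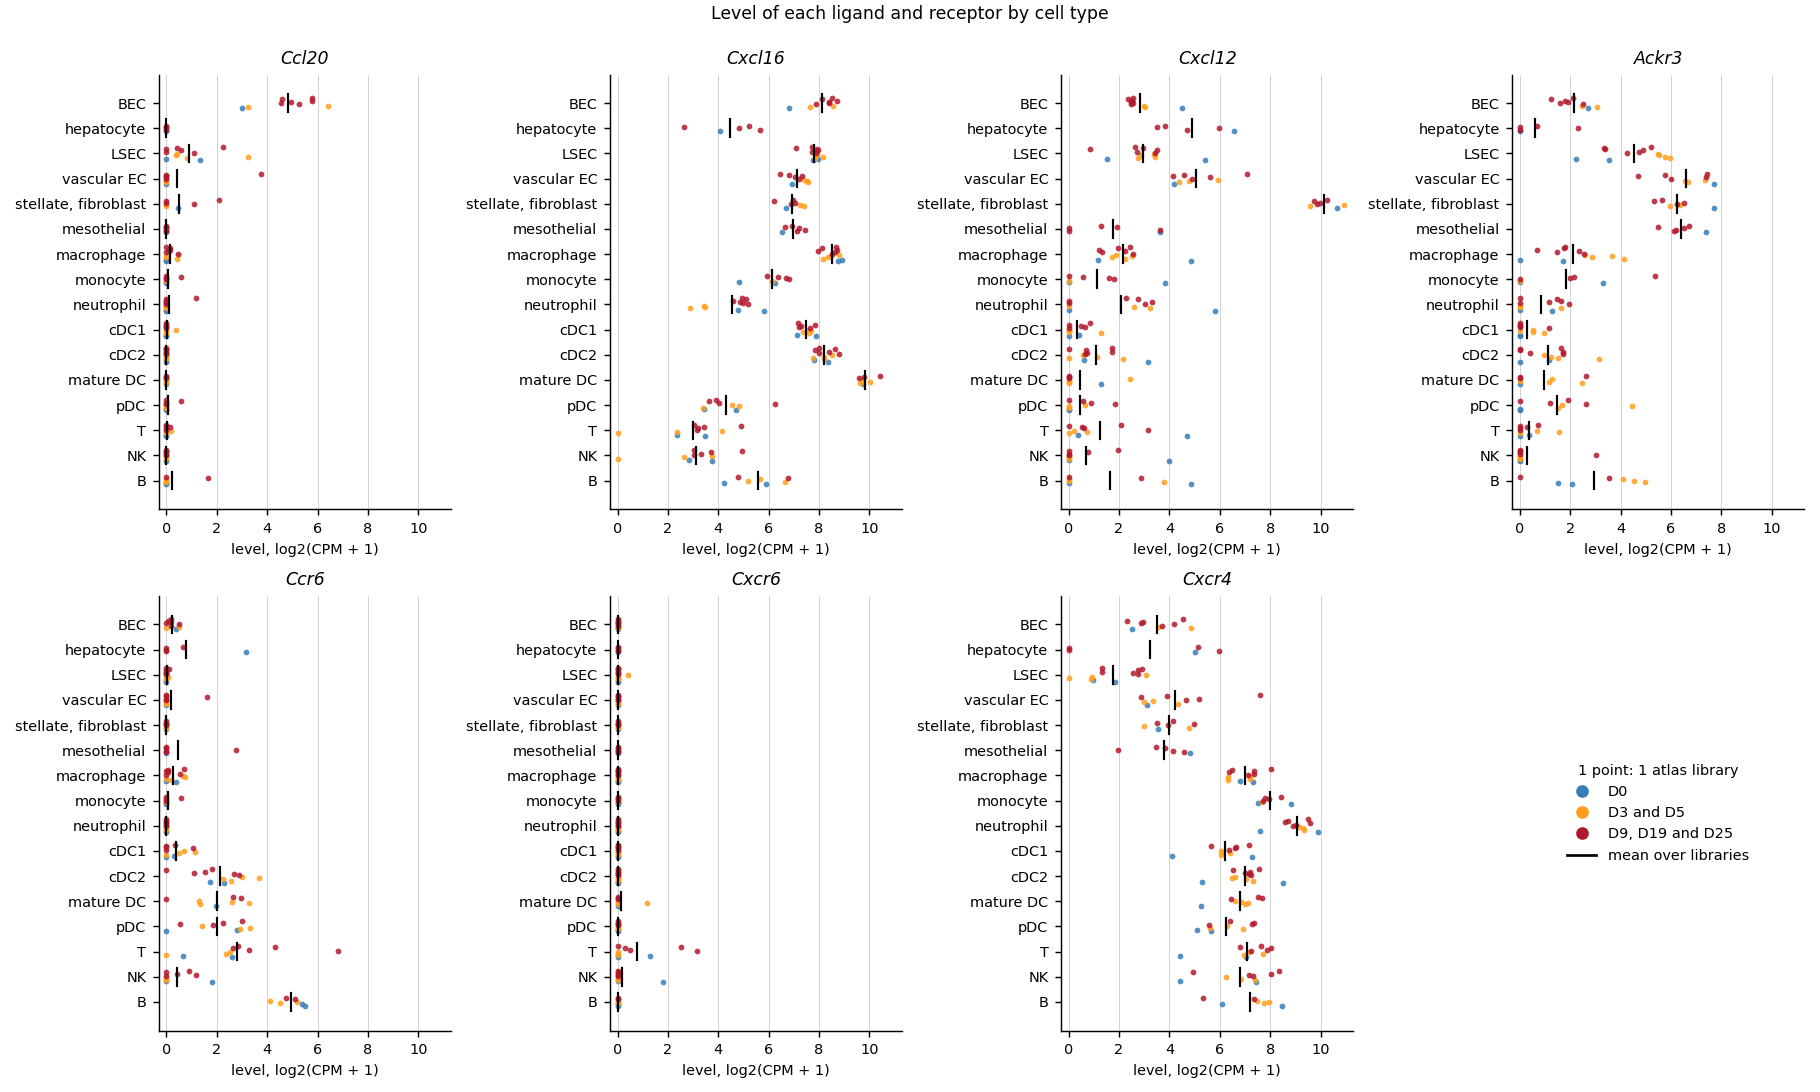
Level of the 7 members on a log2(CPM + 1) axis (x) in 16 cell types (y); a point is 1 atlas library with at least 20 cells of the type, coloured by stage, and the black bar is the mean of the log2 values. Ccl20 stands out in BEC at 6.91 to 83.3 CPM and Cxcl12 in stellate cells and fibroblasts at 774 to 1925 CPM, whereas Cxcl16 and Cxcr4 reach many types.

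Ccl20, the ligand of the Ccr6 pair, came mostly from BEC: these were 5.98% of the atlas cells and held 68.5% of its 3712 UMIs. A further 27.5% lay in unnamed clusters, of which 981 UMIs were in 1 cluster of 641 atlas cells that carried 10 BEC markers and 5 of cDC1 and had a Ccl20 level of 50.3 CPM. LSEC held 2.64%, and no UMI was seen in 5824 cDC2 cells, which allows a share of cells with a UMI of up to 0.0515%. In BEC, Ccl20 was at 6.91 CPM in D0 A and 8.38 in D3 B, against 83.3 in D5 B, 37.1 in D9 A, 22.5 in D9 B, 30.1 in D19 A, 53.3 in D19 B, 23.1 in D25 A and 53.8 in D25 B. Both low libraries were the earliest ones with BEC, and the 7 libraries from D5 on lay above them without overlap. The share of BEC with a Ccl20 UMI was 2.29% in D0 A and between 8.47% and 20.6% in the DDC libraries, and after thinning each cell to 1500 UMIs it was 0.637% in D0 A and 1.49% to 5.86% in the DDC libraries. LSEC, in which Ccl20 was rare, had 0% to 1.62% of cells with a UMI unthinned. The fitted difference of DDC from D0 was 2.44 on the log2 scale (SE 1.08, adjusted p = 0.253), and that of progression from onset was -0.21 (SE 0.68, adjusted p = 0.995); neither passed. Without the filter on low counts the first was 2.38 with an adjusted p of 2.01e-06. With D0 A as the only steady-state library of BEC, this comparison and the others of BEC with D0 assume that it varies like the DDC libraries.

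Few BEC carried most of the Ccl20. In D0 A, 18 of 785 BEC had a UMI and 1 large duct cell held 40 of the 71 UMIs. In D19 B, 79 of 420 cells had one, and the highest cell held 88 of 367. The median was 1 to 3 UMIs per positive cell in every library. BEC were split by markers such as Dmbt1 and Muc4 into large duct and other BEC, in a clustering of these same cells that left the members out. In the other BEC, Ccl20 was 1.48 CPM in D0 A and 9.99 in D3 B, then 82.7 in D5 B and 23.7 to 67.6 in the 6 progression libraries. In D0 A, 637 of these 724 cells lay in cluster 28, led by Ces1d and Ddit4l, with 1.32 CPM against 0 to 124 under DDC. Cluster 21, led by Cxcl5 and Wfdc18, had under 20 cells in D0 A and 34.2 to 112 CPM under DDC. The part of these clusters was not tested. In large duct BEC Ccl20 was 67.4 CPM in D0 A, 88.2 in D5 B (44 UMIs, all in 2 of 38 cells) and 2.36 to 18.8 in the remaining libraries with enough cells. Within libraries the fitted difference of other from large duct BEC was 0.93 on the log2 scale (SE 0.73, adjusted p = 0.323), and without D0 A it was 1.61 (adjusted p = 0.00499), the library in which 1 large duct cell gave most of the UMIs. For DDC against D0 among other BEC alone the difference was 4.99 (adjusted p = 0.11).

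In BEC, Cxcl16, the transmembrane ligand of Cxcr6, had its lowest value in the steady-state library. It was 111 CPM in D0 A and 199 in D3 B, 378 in D5 B, 235 in D9 A, 337 in D9 B, 332 in D19 A, 417 in D19 B, 275 in D25 A and 367 in D25 B. Every DDC library lay above D0 A. Empty droplets held Cxcl16 at 254 CPM in D0 A, 242 in D3 B and 272 in D9 A, above the BEC of the same library. In the other libraries with BEC they lay below the BEC level, and the part of free RNA was not tested. The fitted difference of DDC from D0 was 1.39 on the log2 scale (SE 0.42, adjusted p = 0.135), which did not pass in edgeR, whereas DESeq2 gave 1.39 with an adjusted p of 0.0225, both with 1 D0 library and the spread taken from the DDC libraries. Without D3 B it was 1.60 with an adjusted p of 0.039. Among the other BEC alone the difference was 1.75 (adjusted p = 0.0954), and the change was not tested between subsets. Other BEC had 104 CPM in D0 A and 227 to 489 under DDC, whereas large duct BEC had 187 in D0 A and 98.2 to 201 under DDC. Within libraries other BEC exceeded large duct BEC by 1.10 on the log2 scale (SE 0.27, adjusted p = 0.00588; 46.5% of the 11630 genes tested differed between these subsets). Large duct cells made up 7.77% of BEC in D0 A and 3.16% to 37.6% under DDC, and the part of this mix in the BEC levels was not tested beyond the subset values. Other BEC were also a mix, with 637 of 724 cells in cluster 28 in D0 A against 35 of 353 in D19 B. Cxcl16 was 99.6 CPM in D0 A and 116 to 163 under DDC in cluster 28, and 132 and 347 to 386 in cluster 49. Cluster 21, with under 20 cells in D0 A, had 461 to 616 CPM under DDC. The part of these clusters was not tested.

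In macrophages, Cxcl16 at steady state was 429 CPM (D0 A) and 483 CPM (D0 B). All 10 DDC libraries lay below the D0 library of their own protocol, at 247 to 362 CPM in protocol A and 325 to 441 in protocol B. The fitted difference was -0.37 on the log2 scale (SE 0.19, 95% interval -0.78 to 0.05, adjusted p = 0.307) and did not pass. Macrophage clusters differed in level, with 406 ± 72.6 CPM (n = 12) in the one led by Gpnmb and Ms4a7, 302 ± 46.2 and 318 ± 69.2 (n = 11 each) in those led by Marco and Clec4f, and 686 ± 105 (n = 2) in a cluster led by H2-M2 that came 49.1% from D0 B, and their part in the difference was not tested. LSEC held a steady level, with a median of 236 CPM over 12 libraries and only D25 A, at 136 CPM, below 210.3. Empty droplets held 254 CPM in D0 A and 342 in D5 A, above all LSEC levels of those stages (217 to 245 and 230.4 to 283). In D0 B and D25 B they held 181 and 157, below the LSEC level, and the part of free RNA was not tested. The fitted difference of DDC from D0 in LSEC was 0.07 (95% interval -0.36 to 0.51, adjusted p = 0.943). In cDC2, which present antigen to CD4 T cells, it was 0.10 (95% interval -0.52 to 0.72, adjusted p = 0.926) with 215 to 437 CPM over the libraries. In cDC1, which cross-present antigen to CD8 T cells, the 95% interval ran from -0.45 to 0.45 (adjusted p = 0.998). Mature dendritic cells had the highest level in each of the 8 atlas libraries that held enough of them, from 757 CPM in D9 A to 1373 in D19 B, and 61.8% to 78.8% of them had a Cxcl16 UMI at 1500 UMIs per cell. T cells lay at 0 to 28.7 CPM and NK cells at 0 to 29.8 CPM, below the 126 to 342 CPM of the empty droplets.

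Cxcl12, the ligand of Cxcr4 and Ackr3, was a product of the mesenchyme. Stellate cells and fibroblasts were 1.53% of atlas cells and held 81.8% of the 20309 Cxcl12 UMIs. Their level was 1605 CPM in D0 A, 774 in D5 A, 1925 in D5 B, 929.7 in D9 A, 994 in D19 A, 860.3 in D25 A and 1208 in D25 B. The 4 DDC libraries of protocol A lay below D0 A, but both DDC libraries of protocol B were above those 4, and no D0 library of protocol B had 20 such cells. This type was not among those fixed for testing, and the values are given without a test. In D0 A, Cxcl12 was also high in types with little of it elsewhere: 41.4 CPM in LSEC against 0.815 to 10.3 in the other atlas libraries, 27.7 in macrophages against 1.25 to 4.89, 21.5 in BEC against 4.17 to 7.28 and 55.2 in neutrophils against 0 to 8.99. Empty droplets held Cxcl12 at 59.8 CPM in D0 A, 42.6 in D19 A and 90.2 in D25 B, and the part of free RNA was not tested.

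The comparisons of Cxcl12 with D0 followed that library. In macrophages Cxcl12 was called lower under DDC, by -1.82 on the log2 scale (SE 0.48, adjusted p = 0.0451), in a comparison that called 4.6% of 12600 genes. Without D0 A the difference was 0.78 with an adjusted p of 0.684, and within protocol B it was 0.72 with an adjusted p of 0.753, so the call and its direction rested on D0 A. Here and below, a fit without D0 A or within 1 protocol has a single D0 library, which is assumed to vary like the others. The call also failed when any of 9 other libraries was left out, with the difference between -1.75 and -1.87. In BEC the difference was -1.75 (SE 0.36, adjusted p = 0.0639), where D0 A was the only steady-state library, and DESeq2 gave -1.74 with an adjusted p of 0.0429. In LSEC it was -1.42 (SE 0.56, adjusted p = 0.333), and in D0 A the level was 16.2 CPM once LSEC cluster 14, which carried 5 hepatocyte markers and came 95.4% from D0 A, was left out. The difference was then -0.19 (adjusted p = 0.946). Other BEC had more Cxcl12 than large duct BEC, by 1.61 on the log2 scale (SE 0.33, adjusted p = 0.0017), at 23.1 CPM against 3.55 in D0 A and 4.99 to 9.99 against 0.735 to 6.02 in the DDC libraries that held both.

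Within LSEC, Ackr3, the scavenging receptor, had its highest levels at onset. Its steady-state level in LSEC was 10.5 CPM (D0 A) and 3.73 CPM (D0 B). At onset it was 61 in D3 A, 53.7 in D3 B, 44.7 in D5 A and 43.4 in D5 B. In progression it was 18.3 in D9 A, 25.8 in D9 B, 28.7 in D19 A, 9.38 in D19 B, 9.1 in D25 A and 36.2 in D25 B. The 4 onset libraries lay above the 6 progression libraries and both D0 libraries without overlap. LSEC clusters were drawn unevenly, cluster 3 to 33.6% from D3 A, cluster 9 to 56.6% from D25 A and cluster 19 to 83.3% from D19 A. Their part in the levels was not tested. In empty droplets Ackr3 was also highest in D3 A, at 77.8 CPM, and above the LSEC level in D0 A (20.2) and D9 A (19.3), whereas in D3 B, D5 A and D5 B it was 12.3, 27.5 and 5.32, and the part of free RNA was not tested. The fitted difference of DDC from D0 was 2.11 on the log2 scale (SE 0.53, 95% interval 0.98 to 3.24, adjusted p = 0.119), and DESeq2 gave 2.18 with an adjusted p of 0.00354. Progression was -1.29 from onset (SE 0.35, adjusted p = 0.3). Neither passed in edgeR with the filter on low counts, whereas without it both did (2.24, adjusted p = 3.56e-07, for DDC against D0, and lower in progression than at onset, adjusted p = 5.46e-06). With the filter, DDC against D0 in LSEC called 0.352% of 12795 genes and progression against onset 0.0469%. Without cluster 14 the D0 A level was 4.77 CPM and the DDC difference 3.06 (adjusted p = 0.0763).

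Macrophages had less Ackr3 than LSEC and the same order of stages, with 2.28 and 0 CPM at D0, 5 to 16.6 at onset and 0.607 to 4.93 in progression. DDC against D0 gave 2.24 (SE 0.66, adjusted p = 0.0682) in edgeR, and DESeq2 gave 2.24 with an adjusted p of 0.0277. Progression was called lower than onset by -1.89 (SE 0.34, adjusted p = 0.042), in a comparison that called 0.19% of 12600 genes. The direction held when each of the 12 libraries was left out in turn (-2.09 to -1.67), but the call was lost in 8 of these fits, with the largest adjusted p, 0.361, without D3 A. Empty droplets of D3 A held Ackr3 at 77.8 CPM against 16.6 in its macrophages, and the part of free RNA was not tested. Vascular endothelial cells had 206 CPM in D0 A and 25.1 to 173 under DDC, and stellate cells and fibroblasts 206 in D0 A and 39.4 to 90.8. In BEC, where it was rare, Ackr3 was lower in other than in large duct cells by -1.22 (SE 0.39, adjusted p = 0.0226), a call that was lost without D0 A (-1.08, adjusted p = 0.0601), D5 B (-0.97, adjusted p = 0.0532) or D25 A (-1.09, adjusted p = 0.0703).

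**Figure D2:**
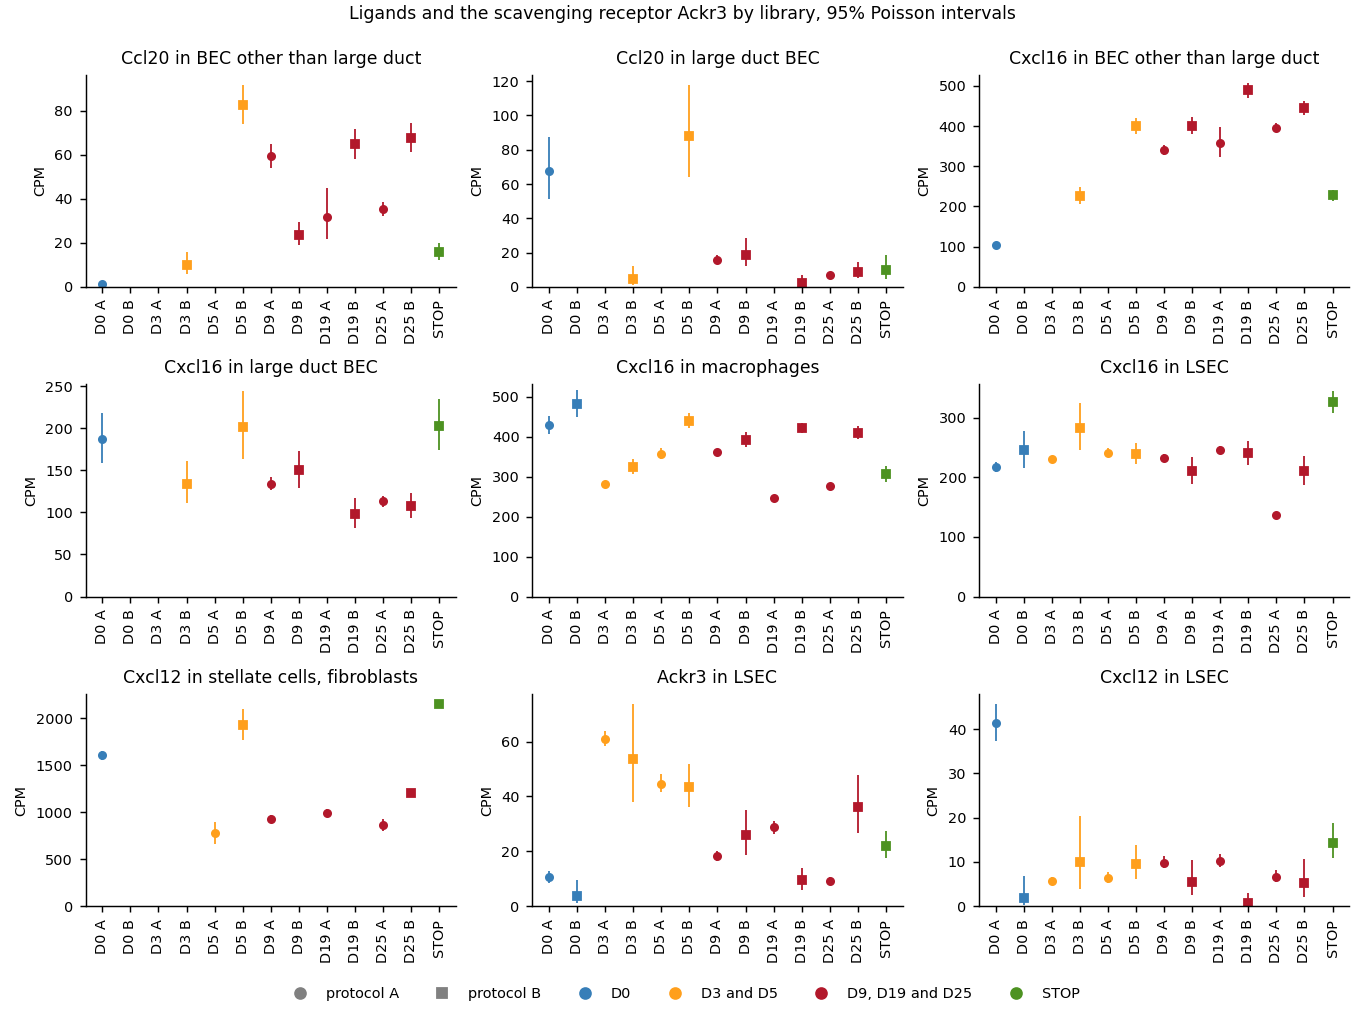
Level in CPM (y) of ligands and of Ackr3 in 1 cell type per panel for each library (x); circles are protocol A, squares protocol B, colours the stage and bars exact 95% Poisson intervals, and libraries with under 20 cells of the type have no point. Cxcl16 in BEC other than large duct is 104 CPM in D0 A and at least 227 under DDC, and Ackr3 in LSEC is highest in the 4 onset libraries at 43.4 to 61 CPM.

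Ccr6, the receptor for Ccl20, was highest by level in a small T cell subset under DDC and, among whole types, in B cells. Of its 949 UMIs, 29.2% lay in cDC2, 24.1% in T cells and 17.3% in B cells, which were 6.69%, 10% and 1.44% of atlas cells. The γδ T17 subset, a cluster of T cells with 8 markers such as Trdc, Il17a and Il23r, is the innate-like source of Il17 in barrier tissues. Trac and Trbc2, genes of the αβ T cell receptor, were also detected in this cluster, and a share of αβ T cells in it was not tested. The subset had a Ccr6 level of 81.9 CPM in D5 B, 105 in D9 B, 33.1 in D19 B and 77.5 in D25 B. In D0 B it was 18.5 CPM, which was 1 UMI in 21 cells (95% interval 0.467 to 103). All other T cells had 0.299 CPM in D0 B, 1.62 in D3 B, 3.02 in D5 B, 4.18 in D9 B, 4.1 in D19 B and 2.85 in D25 B. In each of the 5 libraries with both subsets the γδ T17 level was higher, and the fitted difference was 4.15 on the log2 scale (SE 0.35, adjusted p = 3.46e-18), where 19.2% of 8549 genes differed. The subset was found by clustering these same cells, although without the 7 members among the clustering genes. Of γδ T17 cells, 4.76% in D0 B and 11.4% to 30.5% in the DDC libraries had a Ccr6 UMI, against at most 1.31% of other T cells in protocol B. At 1500 UMIs per cell these shares were 0% in D0 B, 6.33% to 11.2% under DDC and at most 0.675% of other T cells. Neutrophils, which should lack Ccr6, had 0 UMIs in 3971 cells, which allows a share of cells with a UMI, not of cells expressing the gene, of up to 0.0755%.

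Among the other T cells, counting clusters with at least 20 cells in a library, 100 of 113 Ccr6 UMIs of the atlas lay in 1 cluster led by Tnfrsf4, Ctla4 and Cd4, genes of activated and regulatory CD4 T cells. This cluster had 16.7 CPM in D3 B, 36.3 in D5 B, 43.8 in D9 B, 18.5 in D19 B and 25.9 in D25 B, and no UMI in 28 cells of D0 B. It held 28 of 1471 T cells in D0 B and 442 of 2004 in D19 B, and the part of this mix was not tested. Over all T cells the difference of DDC from D0 was 2.92 (SE 0.90, adjusted p = 0.102) and did not pass, in a comparison that called 1.54% of 11143 genes. Within protocol B it was 2.95 with an adjusted p of 0.0303, against the 2 Ccr6 UMIs of D0 B as the only D0 library, with the spread taken from the DDC libraries. T cells of D9 A stood apart at 112 CPM, from 14 UMIs in 39 cells, 9 of which came from 1 cell. B cells had 43.9 (D0 A) and 40.3 CPM (D0 B) at steady state. In the 5 DDC libraries with enough cells they had 16.3 to 35.3 CPM, from 1 UMI (D5 B) to 16 UMIs (D9 A) per library. All 5 lay below the D0 library of their protocol. That difference was -0.55 (SE 0.59, 95% interval -1.73 to 0.62, adjusted p = 1), with 0.215% of 5575 genes called. In cDC2, Ccr6 was 2.3 to 3.88 CPM at D0, 3.76 to 11.7 at onset and 0 to 6.28 in progression, and progression was -1.00 from onset (SE 0.47, adjusted p = 0.85). NK cells held 0 to 2.47 CPM.

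Cxcr6, the receptor for Cxcl16, was almost not counted in these files. Only 21 UMIs fell on it in 87083 atlas cells, of which 12 were in T cells, 6 in unnamed clusters and 1 each in NK cells, mature dendritic cells and LSEC. In T cells, 11 of 8730 had a UMI, which is 0.126% (95% exact binomial interval 0.0629 to 0.225), and in NK cells 1 of 1942 had one, or 0.0515% (0.0013 to 0.287). STOP held 2 UMIs in 8480 cells. By library, T cells held 5 UMIs in D0 B, 3 in D9 B, 2 in D19 B and 1 each in D9 A and D25 A. In the T clusters with at least 20 cells in a library there were 10 of these UMIs, 4 in the γδ T17 cluster and 6 in 1 other cluster. The gene passed the filter on low counts in no comparison. For scale, Cxcr3, a receptor of activated T cells, had 3303 UMIs in the same T cells at 77.7 ± 29.8 CPM (n = 10). Fyco1, which overlaps Cxcr6 on the other strand, had 860 UMIs at 23.2 ± 11.7 CPM (n = 10). No stretch of 31 bases in the annotated Cxcr6 transcripts was shared with a transcript of another gene. Whether the receptor was little expressed or little counted was not tested, and no level over the days was read from it.

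Cxcr4, the signalling receptor for Cxcl12, was found in every leukocyte type named here and lower in D0 B than in D0 A in those given below. In T cells it was 131 CPM in D0 A but only 20.3 in D0 B. Under DDC it was 125 in D3 A, 207 in D3 B, 143 in D5 B, 152 in D9 A, 233 in D9 B, 258 in D19 B, 109.9 in D25 A and 196 in D25 B. All DDC libraries of protocol B lay above D0 B, and those of protocol A lay on both sides of D0 A. Empty droplets held Cxcr4 at 41.7 CPM in D0 B, above its T cells, at 108 to 159.5 in the DDC libraries of protocol B and at 31.2 in D0 A, and the part of free RNA was not tested. NK cells had 170.4 CPM in D0 A but 20.6 in D0 B, with 75.3 to 169 at onset and 29.8 to 322 in progression. In the same order of D0 libraries, B cells had 353 and 66.2 CPM, cDC2 361 and 38.6, cDC1 156 and 16.1, neutrophils 963 and 195, and monocytes 449 and 182. The immediate-early genes Fos, Jun, Egr1 and Dusp1 and the heat shock gene Hspa1a were chosen after their values were seen. They summed to 2991 CPM in T cells of D0 B and 742 to 2560 in those of the other atlas libraries. Their sum was also highest in D0 B in NK cells (3013) and cDC1 (3632). It was not in B cells (2953, against 4350 in D0 A) or cDC2 (3645, against 4164 in D3 B). The part of these genes in the Cxcr4 values was not tested.

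Over all T cells the difference of DDC from D0 in Cxcr4 was 1.79 on the log2 scale (SE 0.51, 95% interval 0.72 to 2.86, adjusted p = 0.0832). Without D0 A it was 3.07 with an adjusted p of 0.000115, so the size followed the D0 library used. In NK cells it was 1.01 (SE 0.62, adjusted p = 0.607), in a comparison that called 0.0187% of 5340 genes, and 3.03 without D0 A (adjusted p = 0.026). In cDC1 it was 0.57 (SE 0.53, adjusted p = 0.661), with 2.21 without D0 A (adjusted p = 0.00591). The fits without D0 A called many more genes, 1967 of 12104 in T cells, 507 of 4691 in NK cells and 1028 of 11056 in cDC1. In cDC2 it was -0.23 (95% interval -1.24 to 0.79, adjusted p = 0.881), and in macrophages -0.13 (95% interval -0.70 to 0.44, adjusted p = 0.838). γδ T17 and other T cells did not differ past the threshold in Cxcr4, with a difference of 0.14 (95% interval -0.21 to 0.49, adjusted p = 0.688). The mix of T clusters differed between libraries, as given for Ccr6, and its part in the T cell difference from D0 was not tested. Cxcr4 of cDC1 lay below the empty droplets in D0 B (16.1 against 41.7 CPM), D3 B (83 against 115) and D5 B (64.5 against 112). So it did in D9 B (96.9 against 159.5) and D19 B (97.9 against 145), but not in D25 B (141 against 108). NK cells of D0 B, at 20.6 CPM, also lay below. The part of free RNA in the cDC1 and NK fits was not tested. Neutrophils, the type with the most Cxcr4, had 385 to 768 CPM in the 9 DDC libraries.

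**Figure D3:**
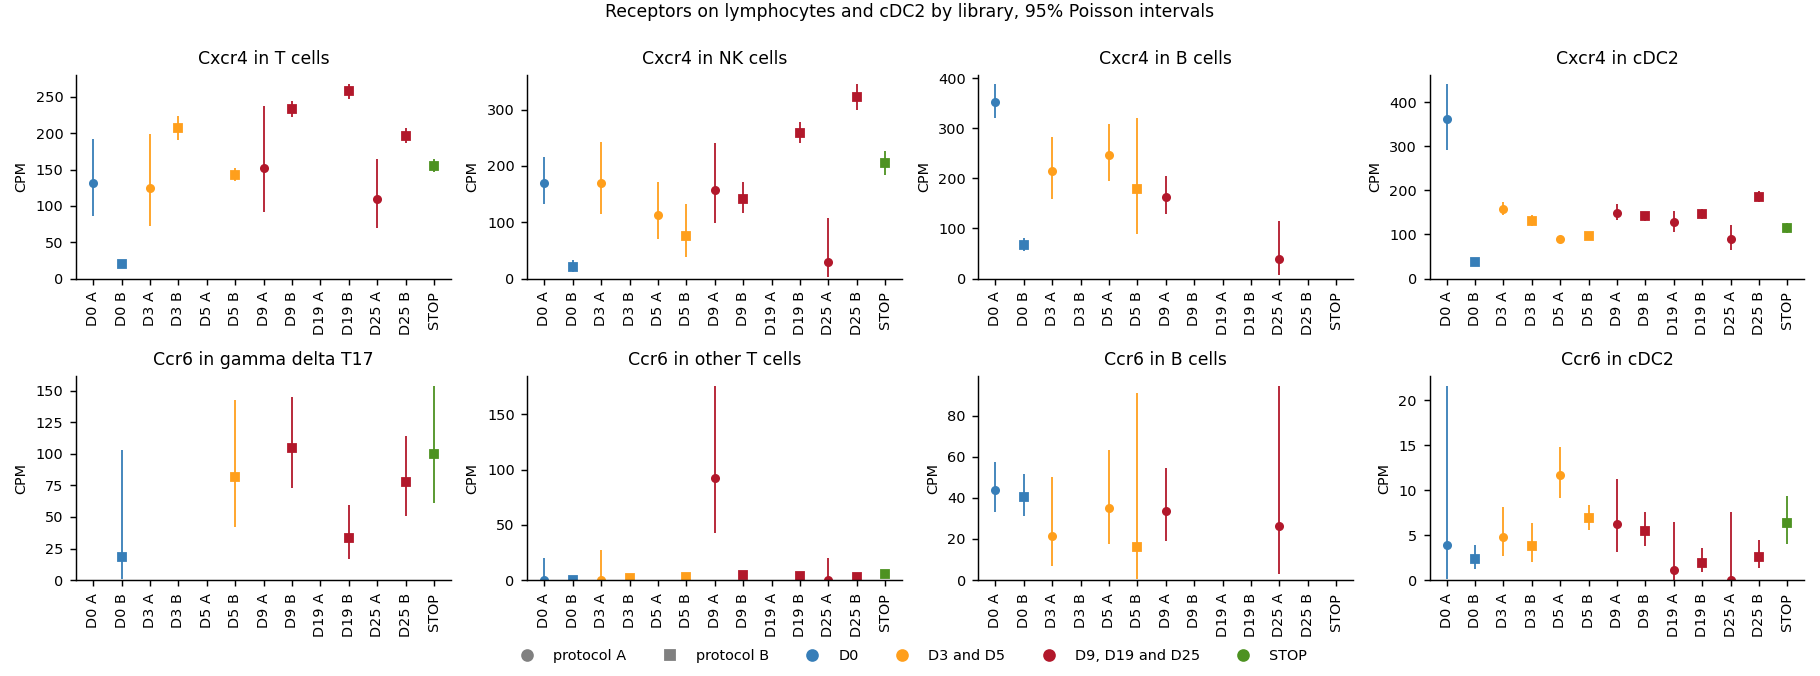
Level in CPM (y) of Cxcr4 and Ccr6 in lymphocytes and cDC2 for each library (x); circles are protocol A, squares protocol B, colours the stage and bars exact 95% Poisson intervals, with no point where a library had under 20 cells of the type. D0 B is low for Cxcr4 in all 4 types shown, and Ccr6 is 33.1 to 105 CPM in γδ T17 cells under DDC; the D9 A point of other T cells, 92.6 CPM, is 9 UMIs in 1 cell.

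Across the 8 cell types tested, 2 member calls were made in the stage comparisons, both in macrophages, and each was lost in other fits as given above. DDC against D0 called 0 of the 5 members tested in BEC, where 0.507% of 15196 genes were called, and 0 of 5 in LSEC. It called 0 of 2 in cDC1 (0.377% of 10081 genes) and 0 of 4 in cDC2 (0.13% of 11501). In T, NK and B cells it called 0 of 4, 0 of 1 and 0 of 3 members. Progression against onset called no member in LSEC, in cDC1 (0.00992% of genes) or in B cells (0.413%). By edgeR it called 0% of all genes in BEC, cDC2, T and NK cells. Before adjustment 825, 670, 487 and 350 genes were below 0.05 there, and the DESeq2 calls numbered 8, 13, 2 and 0. In macrophages 1 of 4 members was called in each comparison, against backgrounds of 4.6% and 0.19%. Within libraries, 3 of 5 members differed between the BEC subsets and 1 of 3 between the T subsets, against backgrounds of 46.5% and 19.2%.

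**Figure D4:**
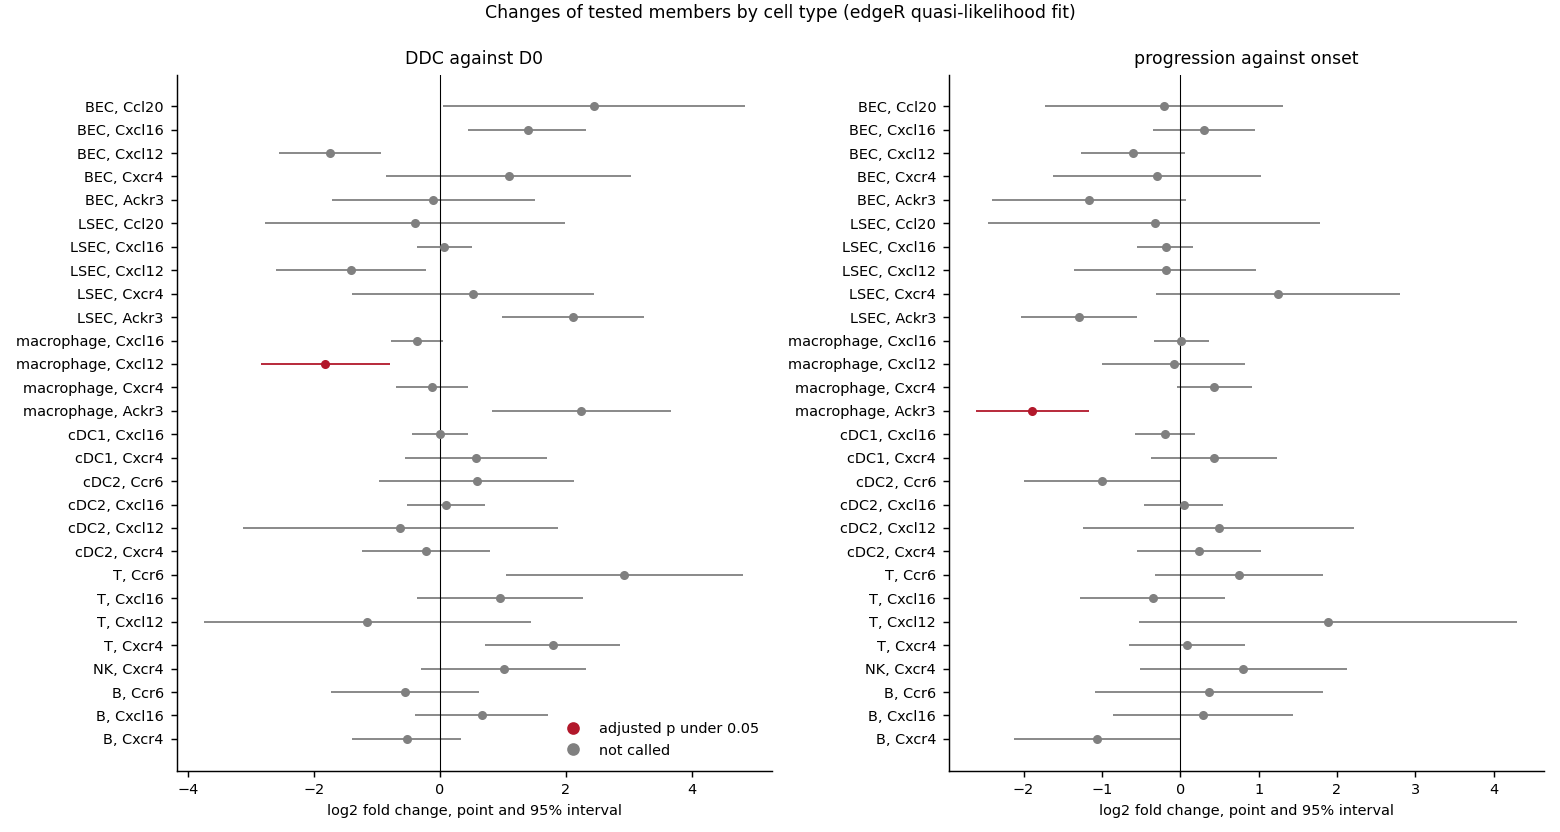
Fitted log2 fold change (x) of each member tested in a cell type (y), for DDC against D0 (left) and progression against onset (right), as a point with its 95% interval; red marks an adjusted p under 0.05 in edgeR. The 2 red points are Cxcl12 and Ackr3 in macrophages at -1.82 and -1.89.

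The remaining chemokine system was read from lists of pathway genes. Of the 27 other chemokine ligands, 22 were tested in BEC and 0 passed under DDC, with a median difference of 1.61 against 0.02 over all genes tested. In macrophages 1 of 22 was higher and 5 were lower, with a median of -1.45 against 0.04 and 4.6% of all genes called. Ccl9 was higher by 1.55 (adjusted p = 0.00733), and Cxcl13, which attracts B cells, and Cxcl9, which attracts Cxcr3-bearing T cells, were lower by -3.71 (adjusted p = 0.00577) and -3.64 (adjusted p = 0.014). In T cells, 1 of 12 ligands passed, Xcl1, which attracts cDC1, at -2.25 (adjusted p = 0.0353), where 1.54% of all genes were called. Of 11 other receptors tested there, Cxcr5, which follows Cxcl13, was higher by 2.81 (adjusted p = 0.0368). Of 8 residency genes tested in T cells, Zfp683, which encodes the residency regulator Hobit, was lower by -2.92 (adjusted p = 0.00271), and none of 7 recirculation genes passed. The mix of T cells differed, with a cluster led by Il4 and Cd40lg holding 747 of 1471 in D0 B but 158 of 2004 in D19 B. The part of this mix in these T cell differences was not tested. In BEC, 1 of 7 residency genes passed, Cd44 at 2.36 (adjusted p = 0.0458), against the single D0 library and with 0.507% of all genes called. Macrophages had 2 of 7 recirculation genes higher, Il7r at 3.84 (adjusted p = 0.00145) and S1pr1 at 1.64 (adjusted p = 0.00792), and Klf2 lower at -1.59 (adjusted p = 0.00237). Of 12 other receptors 1 was higher and 1 lower, with a median of -0.34, and the higher one was Ackr2, a decoy receptor for inflammatory chemokines, at 2.37 (adjusted p = 0.0116). Macrophages were also a mix, and the cluster led by H2-M2, with Ccl12 and Ccl7 among its leading genes, came 49.1% from D0 B. The part of the macrophage clusters in these ligand, receptor and recirculation differences was not tested. In cDC1, 1 of 13 ligands was called, Ccl7 at -3.88 (adjusted p = 0.00615), with 0.377% of all genes called. B cells had 3 of 6 ligands higher in progression than in onset, led by Ccl4 at 5.85 (adjusted p = 2.57e-09), with 0.413% of all genes called. That comparison held 3 onset and 2 progression libraries, D9 A with 135 B cells and D25 A with 22. Over all genes it called 23, against 6 by DESeq2 and 0 to 42 over the alternatives. None of the lists had a member called in LSEC, cDC2 or NK cells in either stage comparison.

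Between the subsets, 19.2% of all genes differed in T cells and 46.5% in BEC, and the list counts are read against these shares. The subsets were clustered from these same cells. Ccr7, a marker used for mature dendritic cells, was not kept out of the clustering, so its p-value is not independent of the subsets. γδ T17 cells had 4 of 8 other receptors higher, led by Ccr2 at 3.02 (adjusted p = 2.56e-25) and Ccr4 at 2.15 (adjusted p = 6.28e-07), and 3 lower, led by Ccr7 at -3.99 (adjusted p = 6.34e-26), the receptor for entry into lymph nodes. Of 7 recirculation genes 5 were lower, Ccr7 among them, and 2 higher, Itgb7 at 1.30 and Il7r at 1.07. Of 7 residency genes 4 were higher and 2 lower, with the integrin Itgae higher at 2.87 (adjusted p = 1.35e-21) and Itga1 lower at -2.30 (adjusted p = 2.86e-06). The list medians, for receptors, recirculation and residency, were 0.70, -1.50 and 1.0 against -0.09 over all genes tested. Of 12 ligands, 3 were higher and 2 lower in other BEC, with a median of 0.71 against 0.05 over all genes. Other BEC had more of the neutrophil-attracting Cxcl1 (3.89, adjusted p = 7.61e-05) and Cxcl2 (2.84, adjusted p = 0.000315) than large duct BEC, and less Ccl28, a mucosal chemokine (-3.29, adjusted p = 4.36e-06), and Cx3cl1 (-1.11, adjusted p = 0.000214). Of 7 genes of ligand processing and alternative partners, 3 were higher and 2 lower in other BEC, with a median of 0.35 against 0.05 over all genes. Mif, a further ligand of Cxcr4, was higher by 0.92 (adjusted p = 2.35e-05) and Hmgb1 by 0.41 (adjusted p = 0.00146). Dpp4, a protease that trims Cxcl12, was lower by -0.51 (adjusted p = 0.00285) and Adam10, a protease that sheds Cxcl16, by -0.48 (adjusted p = 0.00505).

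Recovery was read from 1 library, STOP, beside the D19 library of the same protocol, so these are comparisons of 2 libraries with counting intervals and no test. In BEC, Ccl20 was 14.8 CPM in STOP (11.8 to 18.3) against 53.3 in D19 B (48 to 59), a ratio of 0.278, and Cxcl16 was 224 (211 to 236) against 417 (402 to 433), a ratio of 0.536. Both ligands lay between D0 A, a library of protocol A, and D19 B, and within the range of the DDC libraries (8.38 to 83.3 and 199 to 417). The mix of BEC differed, with 150 cells in cluster 28 in STOP against 35 in D19 B, and 91 against 232 in cluster 21. Within cluster 21 Ccl20 was 57.2 CPM in STOP against 79.7, and Cxcl16 was 389 against 616. Within cluster 28 they were 5.58 against 124 and 139.6 against 163. The part of this mix was not tested. In large duct BEC Cxcl16 was higher in STOP, at 203 CPM against 98.2. Cxcl16 was also lower in STOP in macrophages (307 against 422), cDC2 (174 against 226) and mature dendritic cells (1063 against 1373), and higher in LSEC (326 against 240.1). D19 B was the highest progression library in macrophages and mature dendritic cells, where STOP lay within the DDC range, whereas in cDC2 STOP was below all DDC libraries (215 to 437) and in LSEC above them (136 to 283). Empty droplets held Cxcl16 at 126 CPM in STOP and 235 in D19 B, and the part of free RNA in these Cxcl16 values was not tested. Cxcr4 was lower in T cells (155 against 258), NK cells (205 against 259) and cDC2 (115 against 147) and higher in neutrophils (1061 against 385). In T cells D19 B was the highest DDC library, STOP lay within the DDC range in T, NK and cDC2 cells, and empty droplets held 145 CPM in D19 B and 69.2 in STOP, whereas neutrophils of STOP were above all DDC libraries (385 to 768). Ccr6 of γδ T17 cells was 99.6 CPM in STOP (60.8 to 154) against 33.1 in D19 B (16.5 to 59.1), but D19 B was the lowest DDC library, and STOP lay within the range of D5 B, D9 B and D25 B (77.5 to 105). Ackr3 was higher in STOP in LSEC (22.1 against 9.38) and vascular endothelial cells (112 against 25.1), but D9 B and D25 B had 25.8 and 36.2 CPM in LSEC, and 25.1 was the lowest DDC value of the vascular cells, with 173 the highest. Cxcl12 was 2148 CPM in stellate cells and fibroblasts of STOP, where D19 B had too few, and T cells of STOP had 7.74 against 0.439 while empty droplets had 119 against 6.35, and the part of free RNA was not tested.

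**Figure D5:**
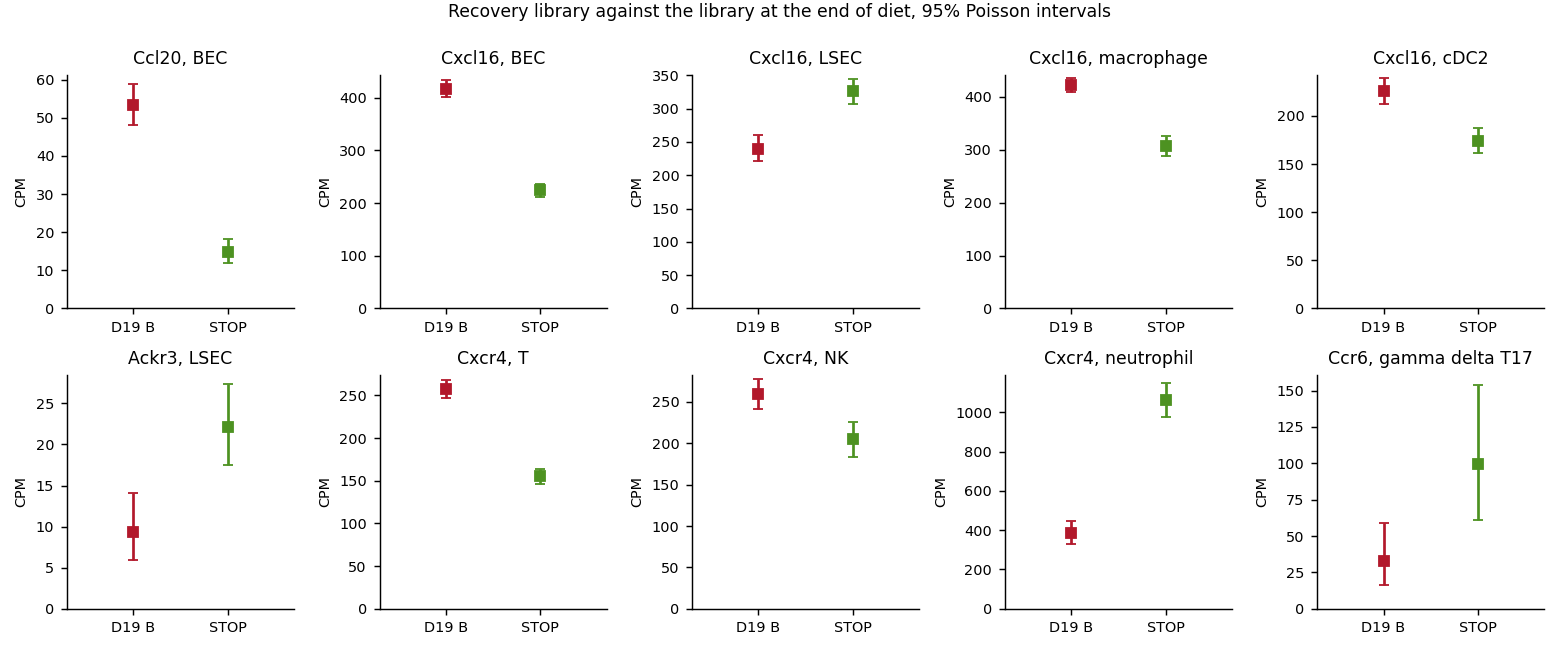
Level in CPM (y) in the D19 B and STOP libraries (x), 1 member and cell type per panel, with exact 95% Poisson intervals of 1 library each. Ccl20 and Cxcl16 in BEC are lower in STOP (14.8 against 53.3 and 224 against 417 CPM), where the mix of BEC clusters also differed. Cxcr4 in neutrophils and Ccr6 in γδ T17 cells are higher in STOP than in D19 B.

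The genes with the most similar pattern over the 16 types, by Pearson correlation of mean log2(CPM + 1) among 11724 genes, are given as a description, since all types come from the same libraries. For Ccl20 they were Lrriq1 (0.989), Tmem54 (0.986) and Chil4 (0.985), all highest in BEC. Ccr6 was nearest to Chst10 (0.885), Il9r (0.868) and the B cell follicle receptor Cxcr5 (0.849), all highest in B cells. Cxcl16 followed Hfe (0.887), Spire1 (0.886) and Hap1 (0.874). Cxcl12 followed Cped1 (0.972), Colec10 (0.922) and Mylk (0.920), all highest in stellate cells and fibroblasts. Cxcr4 followed Apbb1ip (0.952), Fmnl1 (0.950) and the NADPH oxidase subunit Ncf4 (0.949), all highest in neutrophils, and Ackr3 followed Sema3d (0.982), Zfpm2 (0.976) and Phactr1 (0.974). For Cxcr6, which did not reach 10 CPM in any type, Lcn4 (0.995), Trat1 (0.974) and Cd163l1 (0.970) were nearest, all highest in T cells, on the strength of few UMIs.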

How the data were processed

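For each library the authors deposited a matrix of UMI counts, not normalized, that per the labels came from kallisto on GRCm38 (its version was not given in the sources used here). Barcodes with at least 1500 UMIs were kept, clustered with scanpy 1.11.5 (2000 variable genes without the 7 members and list genes that were no markers, 40 components, Leiden resolution 1.5) and named where at least 3 markers were detected and the leading genes did not go against the name; a cluster of under 20 cells stayed unnamed. The members and lists were chosen with earlier results of these data known, and the naming thresholds were set after the clusters were seen. Named genes were the 7 members, the 3 genes of most similar pattern and, per list, the 2 with the lowest adjusted p in each direction. Cells of 1 library are not replicates, so counts were summed per library and type and tested with edgeR 4.0.16 (quasi-likelihood, TMM, filterByExpr, protocol as a term, Benjamini-Hochberg over all genes, threshold 0.05; R 4.3.3); STOP entered no test. Subsets were compared with library as a block. DESeq2 1.42.0 was an alternative. Doublets were called with Scrublet, or by its highest scores where it marked almost none (0.649% to 13.8% of cells per library), and stayed in the main values. Steps were tested on simulated data: of 200 genes changed by 2 on the log2 scale, 24.5% were recovered for BEC under DDC and 74% for macrophages under DDC. Further alternatives were no filter, at least 3000 UMIs per cell, no protocol term, single protocols, leaving out each library and, chosen after seeing the data, LSEC without cluster 14, BEC other than large duct and T other than γδ T17. The order of types was tested by exact sign-flip permutation (scipy 1.17.1). Some list genes that the naming rule covers are not reported here.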

Additional observations from a re-analysis of the deposited data

Results flagged for a closer look

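Within a stage, 39 groups of 4 to 6 libraries were searched for a library far from the others, and 6 were found. For normally distributed values chance gives about 1 in 20. All but the Cxcl16 value rest on few UMIs, for which that rate need not hold, so no excess is read from the count. Ccl20 in LSEC was 8.48 CPM in D3 B against at most 0.76 in the other onset libraries, from 6 UMIs in 1 cell, and 3.69 CPM in D25 B against 1.16 for the next progression library. Ccl20 in macrophages was 0.376 CPM in D9 A, with 0.109 next. Cxcl16 in LSEC was 136 CPM in D25 A, with 210.3 next. Ccr6 in T cells was 112 CPM in D9 A, with 19.1 next, where 9 of the 14 UMIs came from 1 cell. Ccr6 in cDC1 was 1.1 CPM in D9 B, with 0.274 next.

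For 2 members the DDC libraries lay on opposite sides of D0 in a pair of cell types. The difference between the types was not tested, and neither member passed for DDC against D0 in either type in edgeR with the filter on low counts, whereas DESeq2 called Cxcl16 in BEC (adjusted p = 0.0225) and Ackr3 in macrophages (adjusted p = 0.0277). Cxcl16 lay above D0 of the same protocol in every DDC library of BEC (by at least 124 CPM in protocol A, which alone had a D0 library with BEC) and below it in every DDC library of macrophages (by at least 42 CPM). Ackr3 lay above D0 of the same protocol in every DDC library of macrophages (by at least 0.11 CPM) and below D0 A in the 3 DDC libraries of BEC of protocol A (by at least 0.92 CPM). BEC of D3 B, which had no D0 library of its protocol, were at 7.28 CPM, above the 5.55 of D0 A.

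Cells of unnamed clusters entered no comparison. They held Ccl20 at 0 (D0 A) and 0.2 CPM (D0 B) at steady state, and under DDC at 0.169 CPM in the lowest library, D3 A, up to 26.7 in D5 B, so the lowest DDC library did not exceed D0 B.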

How the results depend on the processing

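Of 1065 values of members under the alternatives, 1014 kept their direction or stayed uncalled, 26 lost a call, 23 gained one and 2 reversed; 68 of 960 that were uncalled in both fits had the other sign. The reversed value was Cxcl12 in macrophages under DDC, 0.72 within protocol B and -2.51 to 0.78 over the libraries left out. Members called for DDC against D0 in BEC numbered 0, with 2 by DESeq2, 3 without the filter, 1 without the protocol term and 0 to 1 with a library left out. In LSEC they numbered 0, with 1 by DESeq2, 2 without the filter and 1 in protocol A alone, and for progression 0, with 1 without the filter. In macrophages 1 was called under DDC, with 2 by DESeq2, 2 without the filter, 0 with doublets removed, without the protocol term or in protocol B alone and 0 to 1 with a library left out. For progression in macrophages 1 was called, with 0 with doublets removed, without the protocol term or in either protocol alone and 0 to 1 with a library left out. In cDC1 0 were called under DDC, with 1 in protocol B alone, in T cells 0, with 2 without the filter or in protocol B alone, and in NK cells 0, each with 0 to 1 with a library left out. The causes were not tested. Counts over all genes moved further: for DDC against D0 DESeq2 called 591 genes in BEC against 77 by edgeR, 254 against 45 in LSEC, 1054 against 579 in macrophages, 142 against 38 in cDC1, 149 against 15 in cDC2, 247 against 172 in T cells, 34 against 1 in NK cells and 5 against 12 in B cells, and leaving out a library gave 0 to 241 in BEC, 7 to 231 in LSEC, 352 to 1045 in macrophages, 7 to 1028 in cDC1, 1 to 440 in cDC2, 0 to 1967 in T, 0 to 507 in NK and 12 to 64 in B cells. No neighbouring pair in the order of types passed at 3000 UMIs per cell, with doublets removed, within either protocol or with a pseudocount of 10. A single pair could not pass here either, least of all within 1 protocol with its fewer libraries. These results therefore do not show that the order was stable. BEC without D0 A and BEC in protocol B alone could not be fitted against D0. No paired analysis was possible because the replicate numbers of the labels stand for the protocol, which is already a term of the fit.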
